A study of Homo sapiens with 6 samples.

Results

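MCAM and 7 other surface adhesion molecules (ALCAM, L1CAM, BCAM, CD44, ICAM1, BSG, and CD47) were followed in the transcriptomes of OVCAR5 and its Prex-resistant derivative OVCAR5R. These 8 genes are 8 of 12308 gene rows in the deposited table, and all 8 were among the 11766 genes whose values were high enough to be tested. MCAM was chosen by its measured values in these same libraries, since it stood out as higher in OVCAR5R. The other 7 were chosen by name as surface adhesion molecules, with earlier results of these data known.

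OVCAR5 is an ovarian cancer cell line, described in the study's methods as p53 null with wild-type BRCA genes, and OVCAR5R was derived from it by growth in rising concentrations of the CHK1 inhibitor prexasertib (Prex) up to 3 µM. OVCAR5R was kept at 2 µM Prex, and the protocol has the cells off the drug for at least 4 days ahead of use. Total RNA from 3 cultures of each line was sequenced, values are given below in the order of replicates 1, 2, and 3, and the labels do not say whether OVCAR5R is 1 clone or a mixed population.

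Cell adhesion molecules are membrane proteins that hold cells to each other or to the surrounding matrix, and most of the 8 belong to the immunoglobulin (Ig) superfamily. MCAM (also CD146) was first described on melanoma and marks endothelium and vascular smooth muscle. It binds laminin that contains the α4 chain, while BCAM binds the laminin α5 chain. CD44 is the main receptor for the matrix polysaccharide hyaluronan, ICAM1 is the ligand of leukocyte β2 integrins and a target of NF-κB, BSG escorts lactate transporters to the membrane, and CD47 binds SIRPα on macrophages and thrombospondin-1.

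The sequence upstream of MCAM is shown because the transcript of MCAM separated the 2 lines. All 8 genes had a promoter in RefSeq (GRCh38.p14), with 11 promoters listed for them. Only the first listed promoter of each gene was searched. The window printed is the 250 bases before the annotated start, on the minus strand, at chr11:119317131-119317380. It lies inside the span of the GENCODE gene, which reaches further upstream. Capitals mark the GC box GGGCGG and the cAMP response element TGACGTCA, both searched on both strands.

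MCAM: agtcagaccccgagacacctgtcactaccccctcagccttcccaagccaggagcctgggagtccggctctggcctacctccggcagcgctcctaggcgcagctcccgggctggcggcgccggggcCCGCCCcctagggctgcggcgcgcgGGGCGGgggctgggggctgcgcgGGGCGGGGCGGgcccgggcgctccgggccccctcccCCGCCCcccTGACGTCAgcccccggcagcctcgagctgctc

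The MCAM window held 5 GC boxes, of which 2 share a base, and 1 cAMP response element lying 25 to 32 bases before the start. At least 1 GC box was found in 42.6% of 35116 RefSeq promoters of the same length, and 5 or more in 4.15%. Among the other members, BCAM also held 5 and CD47 held 6, so this count does not set MCAM apart. The cAMP response element was found in 1.65% of promoters and in no other of the 8 promoters searched for the members. A TATAAA box on the gene strand, present in 6.80% of promoters, was not among the letters of the MCAM window. These are matches of letters and were not tested as sites.

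Before the results, the libraries were compared. In units of 1e6, OVCAR5 libraries held 35.8 to 41.3 estimated reads on the listed genes and OVCAR5R libraries 50.3 to 55.1. OVCAR5 replicate 2 stood apart from all others, at -72.0 on the first principal component against -10.6 to 34.6 for the other 5 libraries. Some epithelial surface and keratin genes were much higher in this library, and the genes that weighed most on the component were not ranked. EPCAM, an epithelial adhesion molecule, was 597 in OVCAR5 replicate 2 and between 11.9 and 31.7 in the other 5 libraries. KRT19 was 1341 in this library and between 3.09 and 10.7 elsewhere. The log2 fold changes of the members are therefore also given without OVCAR5 replicate 2, as are those of some of the partner genes. Other partner genes moved as well, such as EPCAM, from -1.17 to 0.61. The label of a carcinoma line was checked by its markers. The epithelial keratins KRT8 (1031 to 7772) and KRT18 (1108 to 6196) were high in all 6 libraries. EPCAM and KRT19, also among these markers, were high in OVCAR5 replicate 2 only. KRT7 was 85.8, 939, and 92.7 in OVCAR5 and 431, 465, and 583 in OVCAR5R. Its log2 fold change was 1.31 (adjusted p = 0.611 in limma), and without OVCAR5 replicate 2 it was 2.44 (adjusted p = 0.0185 in limma). The Müllerian factor PAX8 was 8.38 to 11.4 in OVCAR5 and 4.38 to 5.66 in OVCAR5R, and WT1 was 0.029 to 0.0731 in OVCAR5 and 0.380 to 0.727 in OVCAR5R. Neither overlapped between the lines, beside 8.4% of all tested genes with OVCAR5R above and 8.18% with it below. WT1 was too low to be tested, and 1 estimated read was worth 0.0244 to 0.0290 in OVCAR5. The part of these markers in the results was not tested. CDH1, MUC16, and ESR1 were not analysed here.

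MCAM was the gene with the highest log2 fold change of all 11766 genes tested on the log2(value + 1) scale. This scale understates the fold changes of low genes, so the first rank belongs to this scale only. ABI3, for example, was 1.44, 0.0869, and 3.73 in OVCAR5 and 18.5, 27.4, and 6.46 in OVCAR5R. In OVCAR5 the normalized value was 18.3, 14.7, and 7.70, and in OVCAR5R it was 242, 135, and 104. The lowest OVCAR5R library was 5.71 times the highest OVCAR5 library, so the lines were well separated. The mean was 13.6 ± 5.38 (SD, n = 3) for OVCAR5 and 161 ± 72.5 (SD, n = 3) for OVCAR5R, an 11.8-fold difference. On the log2(value + 1) scale used throughout, the difference was 3.46 (standard error 0.39), and no test is given because this contrast chose the gene. Without OVCAR5 replicate 2 it was 3.55. Within each line the libraries also spread, with a highest to lowest ratio of 2.37 in OVCAR5 and 2.32 in OVCAR5R. The SD on the log2 scale was 0.60 and 0.62, larger than in 80.9% of genes in OVCAR5 and 90.8% in OVCAR5R. Even the lowest library held 304 estimated reads of MCAM, so counting error was small beside this spread. In RNA from whole cultures, more cells with MCAM and more MCAM per cell cannot be told apart.

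**Figure D1:**
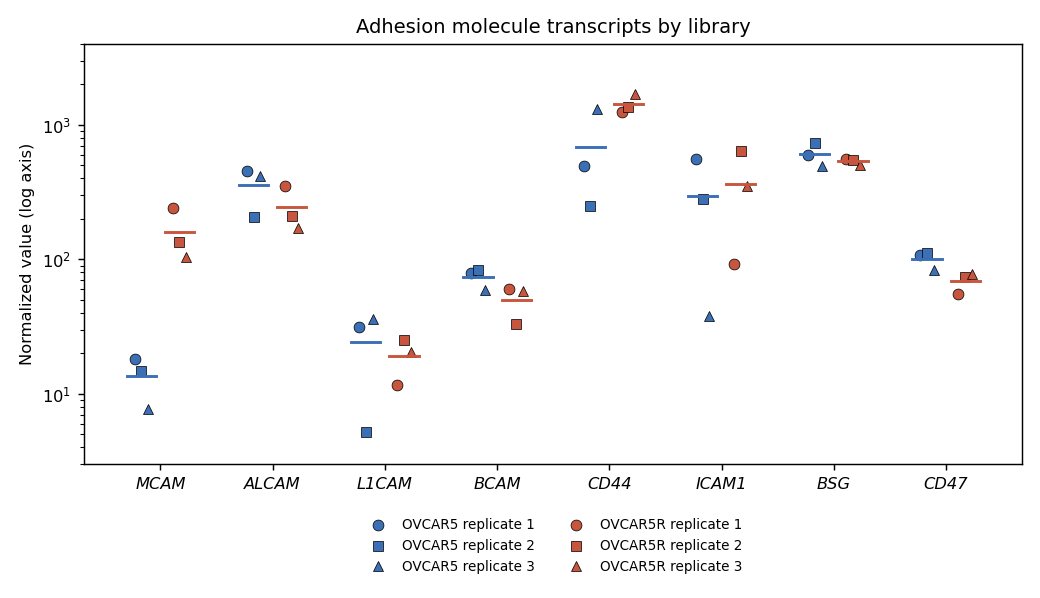
Normalized values (log axis) of the 8 adhesion molecule transcripts in each of the 6 libraries, with OVCAR5 in blue, OVCAR5R in red, a marker shape per replicate and a horizontal line at the mean of the 3 libraries. MCAM lies between 7.70 and 18.3 in OVCAR5 and between 104 and 242 in OVCAR5R, while 6 of the 8 genes overlap between the lines.

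Other cell types that carry MCAM were looked for by their markers. Of 9 endothelial markers, EGFL7 and TIE1 had values. Their summed level was 32.1 to 41.4 in OVCAR5 and 28.3 to 34.1 in OVCAR5R. Of 9 markers of vascular smooth muscle and pericytes, 6 had values, with a summed level of 20.2 to 78.1 in OVCAR5 and 28.4 to 114 in OVCAR5R. CSPG4 made up much of this sum in all libraries but OVCAR5 replicate 2, with 64.9, 3.21, and 18.5 in OVCAR5 and 14.6, 98.3, and 98.4 in OVCAR5R. CNN1 was at most 0.543 and was listed at 0 in OVCAR5 replicates 1 and 2. Of 5 melanocyte markers MITF had values, 0.862 to 3.77 in OVCAR5 and 5.95 to 7.88 in OVCAR5R. Of 5 leukocyte markers CD14 had values, 3.55 to 20.2 in OVCAR5 and 2.02 to 5.66 in OVCAR5R. The markers with no value were not analysed here, and the part of these cell types in the MCAM difference was not tested.

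The tested genes within 2 Mb of MCAM on chromosome 11 had smaller differences. MCAM lies at chr11:119308529-119321521 of GRCh38 (minus strand, GENCODE release 29). Among the 33 tested genes that start within 2 Mb of it, the log2 fold change was between -0.24 and 0.75, with a median of 0.10. The nearest starts of tested genes on either side were those of CBL, a ubiquitin ligase, and RNF26. RNF26 had 0.39 (standard error 0.20) and CBL 0.08 (standard error 0.36). CBL, at chr11:119206276-119313926, overlaps the annotated span of MCAM. The use of strand is not given, so how reads of the shared stretch were assigned is not known. NECTIN1, an Ig superfamily adhesion molecule in the same stretch, had 0.24. TMEM136 had the highest value of the 33, at 0.75. Within 5 Mb, the median of 53 genes was 0.12 and the range was -0.53 to 1.86. In 6 of these the OVCAR5R libraries all lay above those of OVCAR5, beside 8.4% of all genes, and in 0 all below, beside 8.18%. Within 10 Mb, the 101 tested genes ranged from -2.79 to 2.08. The medians of the 53 genes relative to the OVCAR5 mean were -0.03, 0.02, and 0.02 in OVCAR5 and 0.15, 0.08, and 0.12 in OVCAR5R.

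**Figure D2:**
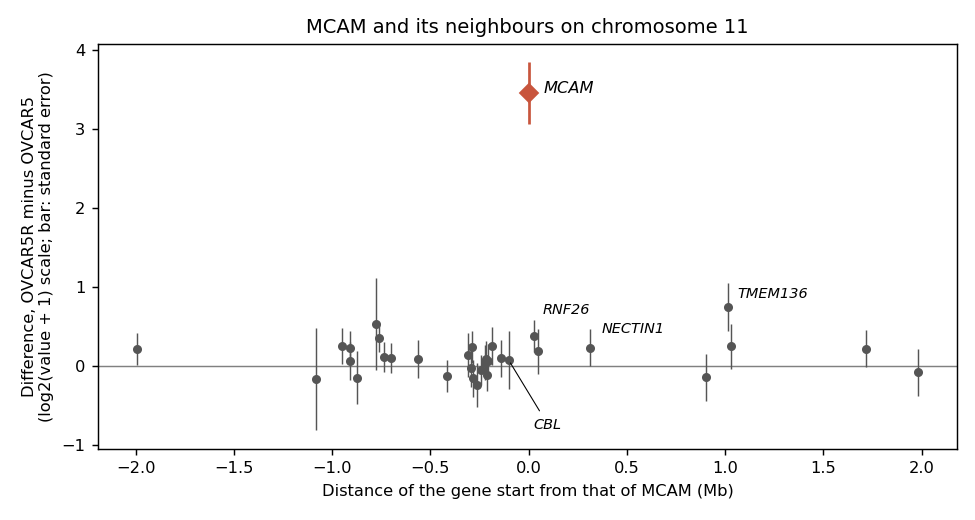
Log2 fold change of OVCAR5R against OVCAR5 (log2(value + 1) scale, bars are standard errors) for MCAM and the 33 tested genes within 2 Mb, by the distance of each gene start from that of MCAM. MCAM is at 3.46 and all neighbours are between -0.24 and 0.75.

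The genes with the pattern most like MCAM were found by Pearson's r with MCAM over the 6 libraries, as a description. MCAM was chosen for its difference, so r largely restates the split between the lines. In all, 102 genes had an r over 0.9 and 112 had an r under -0.9. The highest r was 0.997 for ADPRHL1, followed by MBIP (0.990), VPS45 (0.988), AGBL5 (0.982), and MATN2 (0.978). MATN2, a matrix protein of the matrilin family, had values of 21.2, 20.2, and 8.41 in OVCAR5 and 90.4, 92.2, and 77.4 in OVCAR5R. It had the largest log2 fold change of these 5 genes, 2.41 (standard error 0.34), and VPS45 the smallest, 0.22 (standard error 0.19). The most opposite pattern was that of TIMP3, a matrix-bound inhibitor of metalloproteases, with an r of -0.994 and a log2 fold change of -2.78. CYTH3, ZNF646, LARP7, and IFT27 followed with r between -0.985 and -0.980. Among the 7 other adhesion molecules, the r with MCAM ranged from -0.79 for CD47 to 0.54 for CD44.

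Of these 7, 0 had an adjusted p under 0.05 in limma, where 14 of all 11766 genes (0.119%) did. At an unadjusted p under 0.05 there were 2 of the 7, CD44 and CD47, beside 10.4% of all genes. With the libraries as the measure, 0 of the 7 had all OVCAR5R libraries above OVCAR5, beside 8.4% of genes. All lay below in 1 (CD47), beside 8.18%. MCAM had all above, but it was chosen for this difference and is not counted. The median log2 fold change was -0.09 over the 8 genes, with MCAM included, and -0.01 over all genes tested.

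CD44 had the next highest log2 fold change of the 8. CD44 was 499, 248, and 1320 in OVCAR5, and OVCAR5R had 1243, 1371, and 1703. OVCAR5 replicate 3 thus lay within the range of OVCAR5R, while the other OVCAR5 libraries were well below it. The log2 fold change was 1.38 (95% interval 0.15 to 2.62, adjusted p = 0.429 in limma), and it was 0.81 (adjusted p = 0.531 in limma) without OVCAR5 replicate 2 and 2.02 (adjusted p = 0.121 in limma) without OVCAR5 replicate 3, when the lines no longer overlapped. The SD of CD44 on the log2 scale was 0.23 in OVCAR5R, larger than in 46.2% of genes. In OVCAR5 it was 1.21, larger than in 96.6%. CD44 lies on the short arm of the same chromosome as MCAM, at chr11:35138870-35232402, and the 29 tested genes within 5 Mb had a median log2 fold change of 0.12.

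CD44 pre-mRNA is spliced to epithelial variant isoforms by ESRP1 and ESRP2. ESRP1 was 122 in OVCAR5 replicate 2 and at most 0.279 in the other 5 libraries, and ESRP2 was 44.6 in that library and between 2.08 and 6.65 elsewhere. That library also had the lowest CD44 value, 248. The table has 1 row for CD44, so its isoforms were not resolved.

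CD47 was the other member with no overlap between the lines. Its values were 109, 111, and 83.1 in OVCAR5 and 55.0, 73.4, and 77.4 in OVCAR5R, so OVCAR5 replicate 3 and OVCAR5R replicate 3 lay close together. The log2 fold change was -0.55 (95% interval -1.07 to -0.04, adjusted p = 0.449 in limma), and it was -0.48 without OVCAR5 replicate 2. CD47 and ALCAM are 2.68 Mb apart on chromosome 3, and the 16 tested genes within 5 Mb of CD47 had a median of 0.21. ALCAM, which binds itself and CD6 on T cells, was 453, 206, and 415 in OVCAR5 and 350, 212, and 172 in OVCAR5R. Its log2 fold change was -0.53 (95% interval -1.39 to 0.33, adjusted p = 0.648 in limma). Without OVCAR5 replicate 2 it was -0.89 (adjusted p = 0.374 in limma), and the lines no longer overlapped.

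BCAM, the laminin α5 receptor, was 79.4, 83.0, and 59.2 in OVCAR5 and 60.0, 33.0, and 57.9 in OVCAR5R. Only OVCAR5R replicate 1 and OVCAR5 replicate 3 crossed, and the log2 fold change was -0.58 (95% interval -1.22 to 0.07, adjusted p = 0.516 in limma). Without OVCAR5 replicate 2 it was -0.49. L1CAM, an adhesion molecule of neurons that is also found on carcinomas, was 31.7, 5.18, and 35.8 in OVCAR5 and 11.6, 25.1, and 20.5 in OVCAR5R. Its log2 fold change was -0.03 (95% interval -1.54 to 1.49, adjusted p = 0.996 in limma), and OVCAR5 replicate 2 decided this value. Without that library it was -0.85 (adjusted p = 0.418 in limma), and the lines did not overlap. BSG had the smallest spread of the 8 within OVCAR5R but not within OVCAR5, with 595, 730, and 497 in OVCAR5 and 562, 552, and 505 in OVCAR5R. Its log2 fold change was -0.15 (95% interval -0.65 to 0.34, adjusted p = 0.840 in limma), and it was -0.01 without OVCAR5 replicate 2. The SD of BSG on the log2 scale was 0.08 in OVCAR5R, larger than in 8.88% of genes, and 0.28 in OVCAR5, where that of CD47 was 0.23 and that of BCAM 0.26.

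ICAM1 was the most variable member between cultures of the same line. OVCAR5 had 563, 284, and 37.7, and OVCAR5R had 92.2, 641, and 353. The highest to lowest ratio was 14.9 within OVCAR5 and 6.96 within OVCAR5R, and its SD was larger than in 99.4% of genes in both lines. The log2 fold change of 0.59 (95% interval -1.76 to 2.94, adjusted p = 0.877 in limma) depended on the libraries kept, and it was -0.53 without OVCAR5 replicate 3 and 0.91 without OVCAR5 replicate 2.

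Genes of the NF-κB pathway were read beside ICAM1, and their likeness was noted after the values were seen. RELB, a subunit of NF-κB, was 32.8, 27.4, and 9.33 in OVCAR5 and 13.8, 58.4, and 30.1 in OVCAR5R. TNFAIP3, a feedback inhibitor that NF-κB induces, was 47.9, 31.3, and 18.3 in OVCAR5 and 27.2, 118, and 42.7 in OVCAR5R. Both put the 6 libraries in the same order as ICAM1, from OVCAR5R replicate 2 down to OVCAR5 replicate 3. NFKBIA, NFKB2, BIRC3, and TRAF1 shared with ICAM1 the 2 lowest libraries, OVCAR5 replicate 3 and OVCAR5R replicate 1. Over all genes tested, these 2 libraries also had the highest correlation of deviations from their line means of any pair across the lines, 0.25. The share of all genes with the order of ICAM1 was not computed. NFKB1, the p50 subunit, did not follow this order. It was 69.1, 46.1, and 55.7 in OVCAR5 and 29.1, 53.8, and 40.4 in OVCAR5R, so OVCAR5 replicate 3, the lowest library for ICAM1, was its second highest. RELA, the main transactivating subunit, varied by 1.40-fold in all and did not follow it either. The cultures were thus unlike in these genes within each line, and what set them apart was not tested.

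The κB stretch of ICAM1 is shown because of this shared order. It lies at chr19:10270924-10270952 (plus strand, GRCh38.p14, RefSeq), within 250 bases before the RefSeq start and inside an exon of 1 coding transcript of GENCODE. Capitals mark GGAAATTCC, searched on both strands and found in 0.413% of promoters of the same length. It begins 186 bases before the RefSeq start.

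ICAM1: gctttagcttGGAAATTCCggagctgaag

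**Figure D3:**
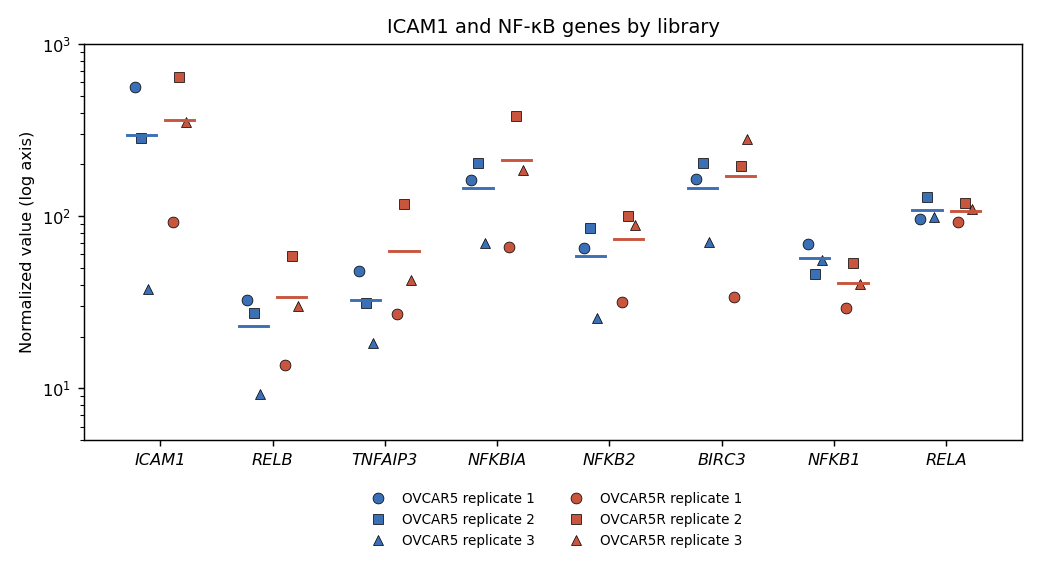
Normalized values (log axis) of ICAM1 and 7 NF-κB genes in each library, with OVCAR5 in blue, OVCAR5R in red, a marker shape per replicate and a line at the mean. OVCAR5 replicate 3 and OVCAR5R replicate 1 are the lowest 2 libraries for ICAM1, RELB, TNFAIP3, NFKBIA, NFKB2, and BIRC3, but not for NFKB1, which varies by 2.37-fold, or RELA, which varies by 1.40-fold.

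Levels were compared between the 8 genes only after division by the length of the longest coding transcript in GENCODE. In OVCAR5 the mean values per kb were 307 for BSG, 120 for CD44, 90.6 for ICAM1, 76.2 for ALCAM, 21.6 for BCAM, 19.3 for CD47, 4.71 for L1CAM, and 4.10 for MCAM. ICAM1 and ALCAM, BCAM and CD47, and L1CAM and MCAM were each within their spread of one another, and CD44 and ICAM1 were too variable in OVCAR5 to be ordered. In OVCAR5R, MCAM reached 48.5 ± 21.9 per kb, close to ALCAM at 52.1 ± 19.9 (SD, n = 3 each) and above BCAM, CD47, and L1CAM. CD44 reached 251 ± 41.4, within the spread of BSG at 273 ± 15.4. With the median length of the coding transcripts in place of the longest, CD44 had 1082 and BSG 335 in OVCAR5R, and 518 and 377 in OVCAR5, where CD44 was again too variable for an order.

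**Figure D4:**
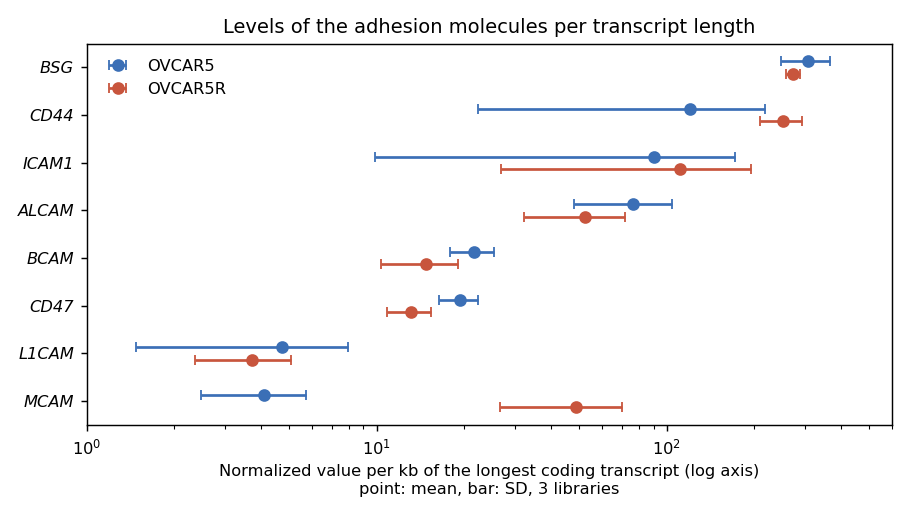
Mean normalized value per kb of the longest coding transcript (log axis, bars are the SD of 3 libraries) for each gene in OVCAR5 and OVCAR5R, ordered by OVCAR5. MCAM is within the spread of L1CAM in OVCAR5 at 4.10 and is near ALCAM in OVCAR5R at 48.5.

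Partners and relatives of the 8 molecules were read from 9 lists, of which 96 different genes were tested. Of these, 0 had an adjusted p under 0.05 in limma. At an unadjusted p under 0.05 there were 15 (6 higher and 9 lower, 15.6%), beside 10.4% of all genes. The OVCAR5R libraries all lay above in 6 (6.25%) and all below in 10 (10.4%), beside 8.4% and 8.18% of all genes.

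Among the other Ig superfamily adhesion molecules, 19 were tested, with a median log2 fold change of 0.08, or 0.31 without OVCAR5 replicate 2. JAM3, a junctional adhesion molecule, had the highest, 2.34 (standard error 0.72, adjusted p = 0.333 in limma). It was 48.9, 5.08, and 40.7 in OVCAR5 and 90.5, 145, and 121 in OVCAR5R. OVCAR5 replicate 2 was again the low library, and without it the log2 fold change was 1.37 (adjusted p = 0.119 in limma). The lowest was that of VCAM1, -1.57, with overlap between the lines, and it was -2.33 without OVCAR5 replicate 2. OVCAR5R was also above without overlap for PVR and MPZL1, with log2 fold changes of 0.64 and 0.37, and in 0 of the 19 it was below.

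Among 16 other surface glycoproteins, the median was -0.24. CD59, an inhibitor of complement, had the highest log2 fold change, 0.97 (adjusted p = 0.394 in limma).

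The ligands of MCAM and BCAM were tested in a list of 7 laminin and galectin genes with a median of -0.35. LAMA4, which encodes the laminin α4 chain, had the highest log2 fold change, 0.87 (standard error 0.36, adjusted p = 0.458 in limma). It was 27.6, 29.5, and 71.2 in OVCAR5 and 83.5, 62.0, and 71.3 in OVCAR5R, so OVCAR5 replicate 3 lay among the OVCAR5R libraries. LAMA5, the ligand chain of BCAM, had -0.53 (adjusted p = 0.493 in limma). The lowest was the galectin gene LGALS1, with 895, 679, and 818 in OVCAR5 and 367, 445, and 477 in OVCAR5R, which is -0.89 on the log2 scale (standard error 0.21, adjusted p = 0.257 in limma). LGALS3 also had no overlap, and its log2 fold change was -0.88, or -0.54 without OVCAR5 replicate 2.

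Behind the membrane, 11 linkers to the cytoskeleton had a median of -0.01. ACTN1, an actin cross-linker, had the highest log2 fold change, 0.95 (adjusted p = 0.298 in limma), with no overlap. EZR, the ezrin that binds the tails of CD44 and ICAM1, had the lowest, -0.91, with overlap, and -0.60 without OVCAR5 replicate 2. The 8 genes of hyaluronan and CD44 had a median of -0.16. HMMR had the highest log2 fold change at 0.02, or -0.23 without OVCAR5 replicate 2, and the lowest was HYAL1, a hyaluronidase, at -2.23 (adjusted p = 0.464 in limma), which was -0.96 without OVCAR5 replicate 2, where HYAL1 was 149.

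The 8 partners of BSG had a median of -0.26. The lactate transporter SLC16A1 had the highest log2 fold change, 0.62, which was 0.19 without OVCAR5 replicate 2. SLC7A5, an amino acid transporter that pairs with SLC3A2, had the lowest, -0.67 (adjusted p = 0.323 in limma), and SLC3A2 had -0.58 (adjusted p = 0.395 in limma), both with no overlap. The 4 partners of CD47 had a median of 0.23, from 0.11 for QPCTL (0.27 without OVCAR5 replicate 2) to 1.10 for THBS1, which encodes its ligand thrombospondin-1. THBS1 was 256, 282, and 517 in OVCAR5 and 864, 468, and 903 in OVCAR5R (adjusted p = 0.359 in limma), so OVCAR5 replicate 3 lay above OVCAR5R replicate 2.

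The proteases that shed CD44, L1CAM, and ALCAM, the γ-secretase subunits, and RHBDF1 and RHBDF2, 13 tested genes, had a median of -0.20. MMP14, a membrane-bound metalloprotease, had the lowest log2 fold change of them, -0.52, which was -1.04 without OVCAR5 replicate 2. The 10 genes of NF-κB and the β2 integrins that bind ICAM1 had a median of 0.15, which was -0.17 without OVCAR5R replicate 2, -0.14 without OVCAR5 replicate 3, and 0.71 without OVCAR5R replicate 1. They ranged from -2.22 for ITGB2 (adjusted p = 0.365 in limma) to 0.76 for TNFAIP3. ITGB2, the shared β2 chain, was 4.94, 58.1, and 10.7 in OVCAR5 and 2.64, 2.07, and 2.67 in OVCAR5R, and its log2 fold change was -1.28 without OVCAR5 replicate 2.

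**Figure D5:**
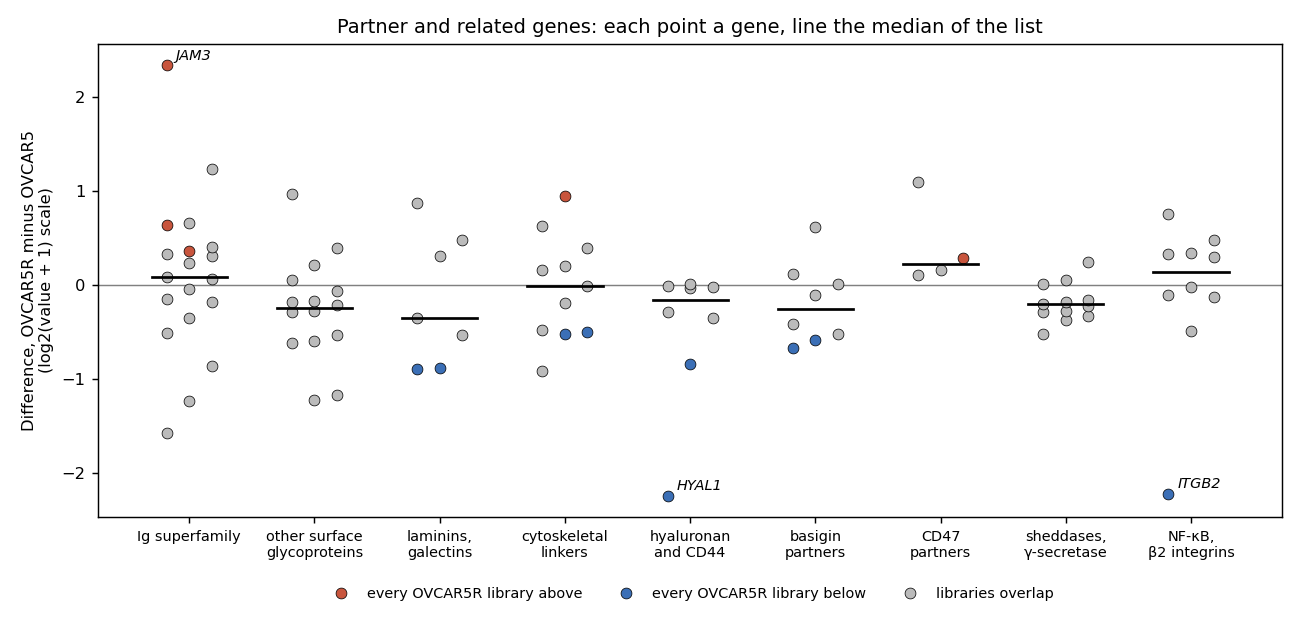
Log2 fold change of OVCAR5R against OVCAR5 (log2(value + 1) scale) for tested genes of the 9 lists (2 genes are not drawn), with the median of a list as a line and genes without overlap of the libraries in red (OVCAR5R above) or blue (below). The medians lie between -0.35 and 0.23, and JAM3 at 2.34, HYAL1 at -2.23, and ITGB2 at -2.22 stand outside.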

How the data were processed

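Total RNA of 3 cultures of OVCAR5 and 3 of OVCAR5R was sequenced, and groups follow the cell line in the labels. The authors deposited a normalized signal per gene symbol and culture, quartile normalized and on a linear scale. The labels name the build hg38, and the aligner, counter, annotation, gene filter, and use of strand are not given in the sources used here. Of 12309 rows, 1 identical copy was dropped. Within a library, low values are multiples of what 1 estimated read was worth, from 0.0181 to 0.0290, but only 63.0% to 67.1% of values are whole multiples (within 0.01 reads), so no count test was used.

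Values were taken as log2(value + 1), which understates the fold changes of low genes. A gene entered the test when 3 or more libraries had a value of 1 or above. The test was limma (version 3.58.1, R version 4.3.3; eBayes with trend after lmFit), two-sided, with Benjamini-Hochberg adjustment over 11766 genes and a threshold of 0.05. No covariates were used. A rank test of 3 against 3 libraries cannot go below 0.1, so overlap of the libraries is given instead. The methods speak of triplicate cultures and do not say whether they were grown independently, so p-values measure the spread between these cultures, which may be technical. The fit was tested on simulated data, in which 200 of 11766 genes were moved by a log2 fold of 2. It called 127 of these 200 and 6 unchanged genes, so a gene not called can still have changed.

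The members, the lists, and the tests were chosen with earlier results of these data known. Named in each list are the genes with the highest and lowest log2 fold change, any gene called, and any with no overlap and a log2 fold change of at least 1 in size. The 5 genes most and least like MCAM by Pearson's r are also named. In 2 of the lists, 1 gene picked in this way is not reported here. EPCAM, KRT7, KRT19, ESRP1, ESRP2, CSPG4, PVR, MPZL1, LAMA5, LGALS3, SLC3A2, the neighbours of MCAM, and the NF-κB genes beside TNFAIP3 were named after their values were seen. GENCODE release 29 (GRCh38) gave positions and lengths for 12233 of 12305 symbols, and RefSeq gave the promoters. Results were recomputed with a pseudocount of 0.1, 2 other filters, limma without its trend, quantile normalization, a block for the replicate number, windows of 2 and 10 Mb, and with single libraries left out. Figures were drawn with matplotlib version 3.10.9.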

Additional observations from a re-analysis of the deposited data

How the results depend on the processing

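Of 352 recomputed values, 320 were taken as unchanged. Fold changes and medians had to keep their direction and their side of the threshold or stay within the spread. Counts had only to stay near the main count. Other filters, the fit without trend, and the block cannot change the log2 fold change of a gene, so some values were unchanged by construction. The log2 fold change of MCAM stayed between 3.12 and 3.72 in all 12 alternatives, with no overlap in any. Only quantile normalization could have made its libraries overlap, since the other alternatives keep their order or only remove a library. In all 12 alternatives, 0 of the 7 other members and 0 of the partner genes had an adjusted p under 0.05 in limma. The sign of L1CAM turned with quantile normalization (0.074) and with a pseudocount of 0.1 (0.0023), and with a library left out its log2 fold change ran from -0.85 to 0.43. That of ICAM1 ran from -0.53 (without OVCAR5 replicate 3) to 1.40, and was -0.02 without OVCAR5R replicate 2. With a library left out, 1 to 2 members, always with MCAM, had OVCAR5R all above and 1 to 3 all below. The partner genes had 7 to 15 above and 11 to 20 below. Fewer libraries overlap less by construction. CD44 was above without overlap, and BCAM below, when OVCAR5 replicate 3 or OVCAR5R replicate 1 was left out, BSG was below without OVCAR5 replicate 3, and ALCAM and L1CAM were below without OVCAR5 replicate 2. Over the 12 alternatives, the list medians ran from 0.04 to 0.31 for the Ig superfamily, -0.37 to -0.07 for other glycoproteins, -0.57 to -0.02 for laminins and galectins, -0.16 to 0.20 for linkers, -0.37 to -0.11 for hyaluronan and CD44, -0.37 to -0.05 for BSG partners, 0.10 to 0.42 for CD47 partners, -0.21 to -0.08 for proteases, and -0.17 to 0.71 for NF-κB and β2 integrins. Over all genes, the 14 with an adjusted p under 0.05 became 0 (without OVCAR5R replicate 3) to 29 (without OVCAR5 replicate 2), and 5 with the replicate block. The replicate numbers did not pair the cultures (correlations of deviations of -0.004, 0.18, and -0.12 for numbers 1, 2, and 3), and the block changed no call of a member or partner gene. The cause of these changes was not tested. The lowest value of any member rested on 179 estimated reads.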
